A study of Mus musculus with 4 samples.

Results

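Integrins are the cell surface receptors that anchor cells to the matrix and to each other, and 10 genes for integrin subunits of mesoderm and endothelium were followed here in 2 sorted populations of mouse cells. They were taken by name, and all 10 were measured, of 18193 genes in all. The genes were 7 alpha subunits (Itga1, Itga3, Itga4, Itga5, Itga6, Itga9 and Itgav) and 3 beta subunits (Itgb1, Itgb3 and Itgb5). Each was read on the probe set with the highest mean over the 4 arrays, a probe set being the group of short oligonucleotides that reports 1 transcript on the array.

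Both populations came from embryonic stem cells of the mouse line TT2 in which 1 allele of Etv2 carries the fluorescent reporter Venus, and both had been grown on OP9, a bone marrow stromal line used to derive mesoderm and blood. The labels give day 5 of differentiation, and the series' design text 4 to 5 days. All sorted cells carried Flk-1, the product of Kdr, a receptor for VEGF on mesoderm that can form vessels and blood. They were divided into Flk-1+/Etv2- cells, without Venus signal, and Flk-1+/Etv2+ cells, with Venus signal from the locus of this ETS transcription factor. Each population had 2 arrays, numbered 1 and 2 in the labels. Whether arrays of a population stem from different cultures is not stated, and each p-value therefore reflects array-to-array spread alone, possibly of technical origin. Both populations derive from 1 parental line and carry 1 modified Etv2 allele, so neither is a wild-type control. The transcript of Etv2 itself was strong in both, at 12.03 and 11.87 in the Flk-1+/Etv2- cells and 12.64 and 12.41 in the Flk-1+/Etv2+ cells, a difference of 0.57 (SE 0.13, 1.49-fold; limma adjusted p = 0.185). The labels Etv2- and Etv2+ therefore describe Venus signal, and the population without it did not lack Etv2 transcript. How many of its cells held the transcript cannot be told from RNA pooled over cells.

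An integrin is a dimer of 1 alpha and 1 beta chain, and the pair decides which matrix protein is bound. Integrins with beta1 bind collagen (alpha1), laminin (alpha3 and alpha6), fibronectin (alpha5) or, for alpha4 and alpha9, further ligands that include VCAM-1, tenascin and EMILIN-1. The alpha v chain pairs with beta1, beta3 or beta5, among others, and binds vitronectin, fibronectin and other proteins with an RGD motif. In the embryo, fibronectin and its receptors are needed for mesoderm and vessel formation, and endothelial cells use several of these dimers on their basement membrane.

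Venus marks activity of the locus of an ETS factor, so the bases before the gene starts were searched for the core that ETS factors share, GGAA, which reads TTCC on the other strand. RefSeq sequences (build GRCm38.p6) were held for 8 of the 10 genes, with 9 starts. The 250 bases before the start are shown for Itga1, Itga3 and Itga9, which were higher in the Etv2-Venus positive cells, and for Itgb5, which was lower, because these had the furthest differences among the genes with a sequence. They are written 5′ to 3′ on the strand of the gene, and capitals mark each match. The windows lie at chr13:115101965-115102214 on the minus strand, chr11:95076715-95076964 on the minus strand for the outer of the pair of Itga3 starts, chr9:118711442-118711691 on the plus strand and chr16:33829415-33829664 on the plus strand.
Itga1: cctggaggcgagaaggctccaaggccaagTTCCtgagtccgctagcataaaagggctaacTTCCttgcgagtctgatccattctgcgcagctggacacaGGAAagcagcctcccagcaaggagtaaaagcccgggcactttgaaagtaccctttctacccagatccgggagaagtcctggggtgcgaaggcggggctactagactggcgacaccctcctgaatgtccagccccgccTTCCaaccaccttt
Itga3: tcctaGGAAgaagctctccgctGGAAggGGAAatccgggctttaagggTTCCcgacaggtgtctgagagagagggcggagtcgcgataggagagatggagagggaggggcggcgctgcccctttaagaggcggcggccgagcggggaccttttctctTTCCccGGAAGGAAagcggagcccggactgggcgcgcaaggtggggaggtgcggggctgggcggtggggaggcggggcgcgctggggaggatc
Itga9: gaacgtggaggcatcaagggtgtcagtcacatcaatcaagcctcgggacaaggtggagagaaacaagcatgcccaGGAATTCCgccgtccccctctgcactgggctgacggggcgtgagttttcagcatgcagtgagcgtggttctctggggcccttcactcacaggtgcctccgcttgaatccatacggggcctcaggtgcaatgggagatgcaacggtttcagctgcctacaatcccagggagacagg
Itgb5: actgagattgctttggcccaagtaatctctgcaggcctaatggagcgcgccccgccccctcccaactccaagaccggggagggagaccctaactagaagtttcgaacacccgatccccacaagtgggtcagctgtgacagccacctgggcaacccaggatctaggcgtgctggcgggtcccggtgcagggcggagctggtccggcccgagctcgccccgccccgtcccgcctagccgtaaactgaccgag

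The core was found 4 times before Itga1, 7 times before this start of Itga3, 2 times before Itga9 and 0 times before Itgb5. Among the starts not shown, it was found 8 times before Itga5, 4 times each before Itgav and Itgb1, and 1 time before Itga4. The other start of Itga3 had 3 matches. The counts did not follow the differences, as Itga5, with overlapping arrays, had the most. Itgb5 was the only one of the 9 starts with no match. Such a short core is frequent: 93.4% of the 32851 promoters in the table held it within the same length, and 6.55% did not. The longer string CGGAAG, which contains the core and was also searched on both strands, occurred at 2 of the 9 starts, those of Itga3 and Itgav, against 13.6% of all promoters. The match before Itga3 began 88 bases upstream of the start and that before Itgav 55 bases upstream. A match describes letters and was not tested as a binding site.

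The 2 arrays of the Etv2-Venus positive population lay above both arrays of the negative population for 5 subunits, Itga1, Itga3, Itga4, Itga9 and Itgb3, and below them for 2, Itgb5 and Itga6. Itga5, Itgav and Itgb1 overlapped between the populations. Of all genes, 22.4% had arrays apart with higher values in positive cells, and 17% with lower values. Differences are given on the log2 scale as Etv2-Venus positive minus negative, with the standard error (SE) of the limma fit. They ran from -0.65 for Itgb5 to 0.65 for Itga1, with a median of 0.16 over the 10 genes against 0.01 over all genes. The middle 95% of all genes lay between -0.48 and 0.58, and only Itga1 and Itgb5 of the 10 were outside it.

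No subunit passed an adjusted p of 0.05, and neither did any of the 18193 genes (0%) in limma with Benjamini-Hochberg adjustment. At an unadjusted p under 0.05, limma counted 5 of the 10 subunits, 4 higher (Itgb3, Itga9, Itga3 and Itga1) and 1 lower (Itgb5). Over all genes 7.07% were counted as higher and 4.64% as lower by that rule. In bulk RNA, fewer cells with a transcript and less of it per cell cannot be told apart.

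**Figure D1:**
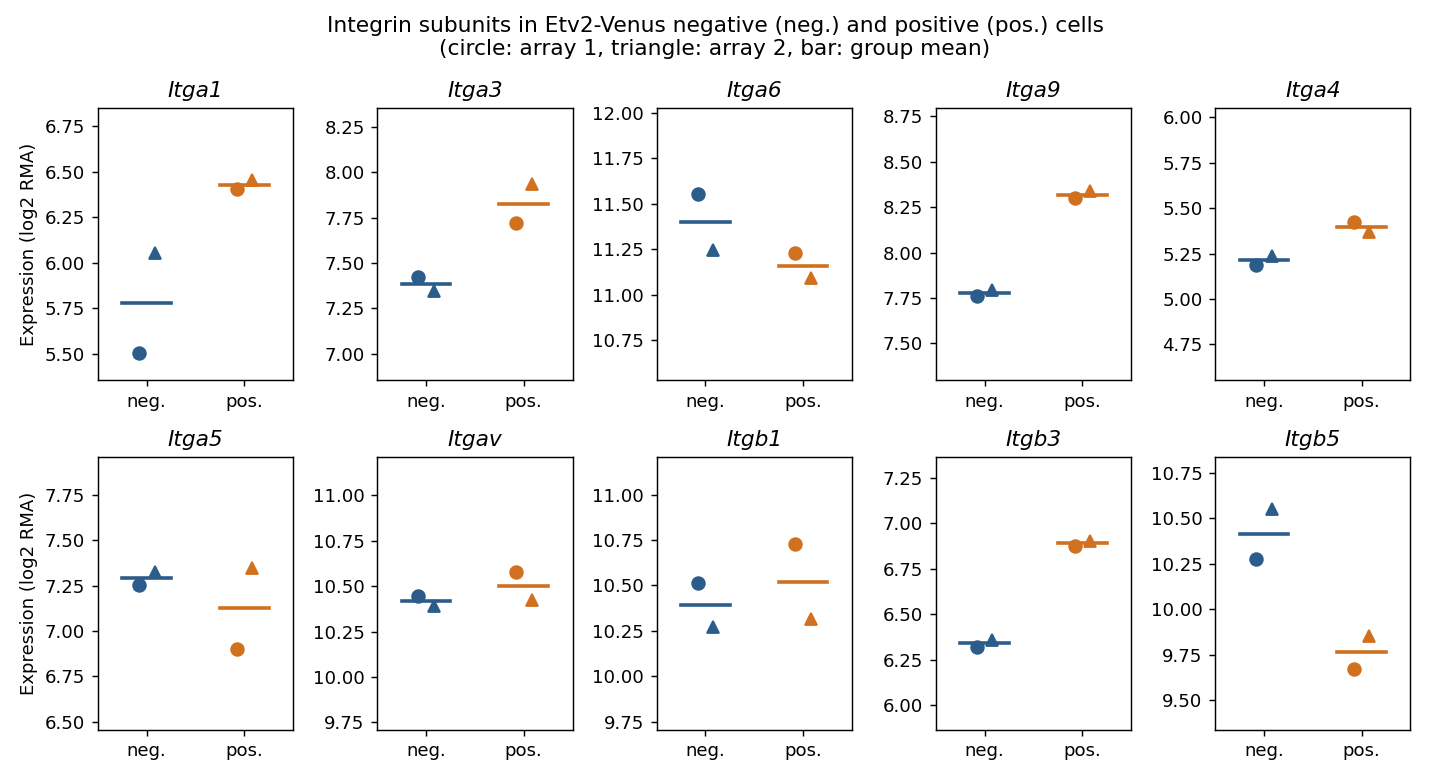
Expression of the 10 integrin subunits on each array, in log2 RMA units, in Etv2-Venus negative (blue) and positive (orange) cells; circles are arrays numbered 1, triangles arrays numbered 2, and bars group means (n = 2). Every panel spans 1.5 log2 units around its own midpoint; Itga9 and Itgb3 show the narrowest groups that lie apart, Itgb5 the clearest lower level, and Itgb1 and Itgav overlap.

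Itga1 encodes alpha1, the chain that with beta1 forms a receptor for collagens, type IV of basement membrane among them. It gave 5.51 and 6.05 in Venus-negative cells, against 6.40 and 6.45 in Venus-positive cells. The positive arrays were close together and above the negative ones, which were themselves 0.55 apart. The difference was 0.65 (SE 0.20, 1.57-fold; limma adjusted p = 0.319). It was 0.90 between the arrays numbered 1 and 0.40 between those numbered 2, and leaving out array 1 of the negative cells gave 0.38. A second, dim probe set of Itga1, with a mean of 3.60, differed by 0.36 in the same direction.

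Itga3 and Itga6 encode the alpha chains of laminin receptors, and they lay on opposite sides of 0. Itga3 gave 7.42 and 7.35 in Venus-negative cells, against 7.72 and 7.93 in Venus-positive cells, with no overlap. Its difference was 0.44 (SE 0.11, 1.36-fold; limma adjusted p = 0.243). The other probe sets of Itga3 gave 0.30 and 0.04, and the mean over all of them gave 0.26. Itga6 gave 11.55 and 11.24 in Venus-negative cells, against 11.23 and 11.09 in Venus-positive cells. The lower negative array and the higher positive array of Itga6 were nearly level, so the groups were barely apart. The difference was -0.24 (SE 0.14, 95% interval -0.60 to 0.13; limma adjusted p = 0.617), and leaving out array 1 of the negative cells gave -0.09 and leaving out array 2 gave -0.39. The second probe set of Itga6 gave -0.44, also with arrays apart.

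Itga9 and Itga4 form their own branch of the alpha family. Alpha9 binds tenascin-C and EMILIN-1 and is known for lymphatic valves, and alpha4 binds VCAM-1 and fibronectin on blood cells and in the early embryo. Itga9 gave 7.76 and 7.79 in Venus-negative cells, against 8.30 and 8.34 in Venus-positive cells. The arrays within a population were thus 0.03 and 0.04 apart, far less than the gap between the populations. The difference was 0.54 (SE 0.09, 1.45-fold, 95% interval 0.31 to 0.77; limma adjusted p = 0.115). It was 0.54 between the arrays numbered 1 and 0.55 between those numbered 2. The probe set used is of the type (_s_at) that can bind related transcripts. A probe set of the specific type gave 0.52 with arrays apart, and the third gave 0.39 with arrays that overlapped.

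Itga4 gave 5.19 and 5.24 in Venus-negative cells, against 5.42 and 5.37 in Venus-positive cells. Its levels were below the array medians, which ran from 5.46 to 5.52, so the size of its difference of 0.18 is uncertain (SE 0.09, 95% interval -0.05 to 0.42; limma adjusted p = 0.541). The 4 other probe sets of Itga4 were dimmer still, with means from 2.83 to 3.50, and gave -0.14 to 0.32. The mean over all of them was 0.09.

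Itga5 and Itgav encode the alpha chains of receptors for RGD proteins, alpha5 being the chain of the main fibronectin receptor. Itga5 gave 7.25 and 7.33 in Venus-negative cells, against 6.90 and 7.35 in Venus-positive cells. Only array 1 of the positive cells was low, and array 2 was level with the negative cells. The difference was -0.17 (SE 0.17, 95% interval -0.62 to 0.28; limma adjusted p = 0.817), and leaving out array 1 of the Venus-positive population gave 0.06 and leaving out array 2 gave -0.39. Among the 3 probe sets of Itga5 with a mean of at least 5, 1 was higher, by 0.19, and 2 were lower, so they did not share a direction. Itgav gave 10.45 and 10.39 in Venus-negative cells, against 10.58 and 10.43 in Venus-positive cells. Its values overlapped, with a difference of 0.08 (SE 0.10, 95% interval -0.18 to 0.35; limma adjusted p = 0.855). It was 0.01 or 0.16 with 1 or the other positive array left out, 0.05 without array 2 of the negative cells, and turned to -0.04 with the mean over probe sets.

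Itgb1 encodes beta1, the shared partner of most alpha chains described above. It gave 10.51 and 10.27 in Venus-negative cells, against 10.73 and 10.32 in Venus-positive cells. In both populations the array numbered 1 was the higher, by 0.24 and 0.41, which is more than the difference of 0.13 between the populations (SE 0.18, 95% interval -0.34 to 0.59; limma adjusted p = 0.875). That difference ran from -0.08, once array 1 of the Venus-positive population was left out, to 0.33, once array 2 was, and it was 0.01 without array 2 of the Venus-negative cells and 0.25 without array 1. The mean over probe sets gave 0.08. The interval of Itgb1 does not reach the 0.65 estimated for Itga1, but it overlaps the interval of Itga1, 0.13 to 1.17.

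Itgb3 and Itgb5 encode alternative partners of alpha v, and they differed in opposite directions. Itgb3, also the beta chain of the platelet integrin, gave 6.32 and 6.36 in Venus-negative cells, against 6.88 and 6.90 in Venus-positive cells. Both groups were tight, and the difference was 0.55 (SE 0.09, 1.46-fold, 95% interval 0.32 to 0.78; limma adjusted p = 0.112). The second probe set of Itgb3, with a mean of 4.67, gave 0.13 with arrays that overlapped, and the mean over both gave 0.34.

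Itgb5, the beta chain of a vitronectin receptor, gave 10.28 and 10.55 in Venus-negative cells, against 9.67 and 9.85 in Venus-positive cells. Both positive arrays were thus below both negative ones, and the array numbered 2 was the higher in each population. The difference was -0.65 (SE 0.14, 1.57-fold lower, 95% interval -1.01 to -0.29; limma adjusted p = 0.169). It was -0.60 between the arrays numbered 1 and -0.70 between those numbered 2. All 4 probe sets of Itgb5 were bright, with means from 9.38 to 10.09, and all 4 were lower with arrays apart, by -0.65 to -0.53. Some of them are of types that can bind several or related transcripts, but the specific one gave -0.53.

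**Figure D2:**
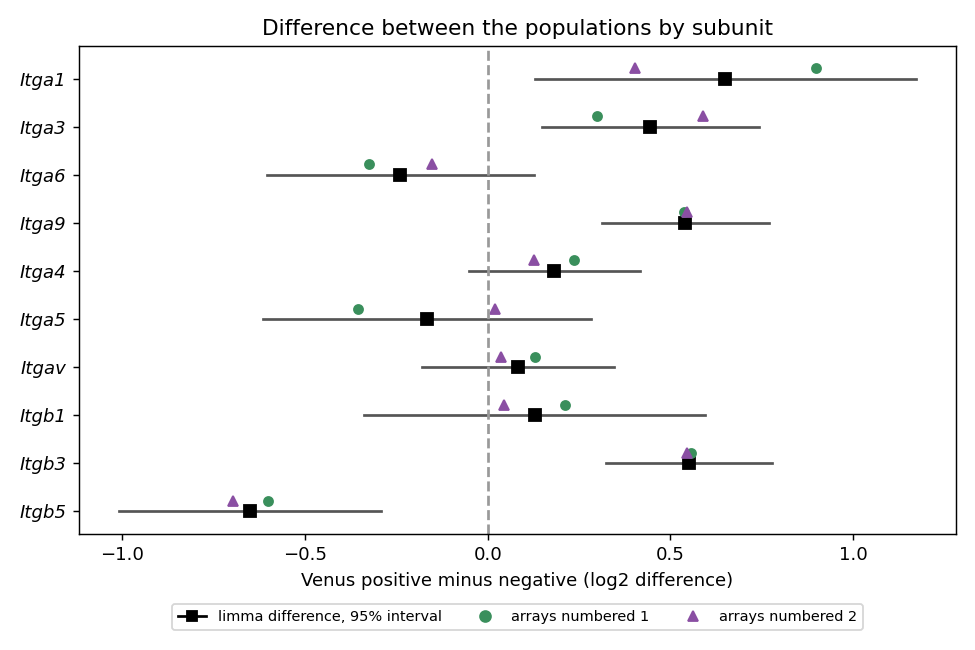
Log2 difference of each subunit between Etv2-Venus positive and negative cells; squares are the limma difference with its 95% interval, circles the difference between arrays numbered 1 and triangles that between arrays numbered 2. The intervals of Itga1, Itga3, Itga9 and Itgb3 lie above 0 and that of Itgb5 below 0, before any adjustment for the number of genes; Itga5 is the only subunit whose 2 array numbers fall on opposite sides of 0.

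Subunits of like role were also set against each other within each array, which removes anything that scales all values of an array. These 4 pairs were chosen with the values known. The ratio of Itgb3 to Itgb5 was 1.20 log2 units higher in the positive cells, 1.16 between the arrays numbered 1 and 1.24 between those numbered 2. That of Itga3 to Itga6 was 0.68 higher, with 0.63 and 0.74 by array number. These ratios used 1 probe set per gene. With the mean over probe sets the differences were 0.34 for Itgb3 and -0.57 for Itgb5, and 0.26 for Itga3 and -0.34 for Itga6. Itga9 against Itga4 was 0.36 higher, with 0.30 and 0.42, but Itga4 lay below the array medians, so the size of this shift is uncertain. Itgav against Itga5 was 0.25 higher, but 0.48 and 0.02 by array number. The exact permutation test over arrays gave a two-sided p of 0.333 for the first 3 pairs, the smallest that 2 arrays against 2 allow, and 0.667 for Itgav against Itga5. With this design no such test can reach 0.05.

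The 36 probe sets of the 10 genes, 23 of them with a mean of at least 5, give a second view of the same RNA. Their differences shared 1 direction among the brighter probe sets for Itga3, Itga6, Itga9 and Itgb5, the genes with more than 1 such probe set and no split. They were split for Itga5, Itgav and Itgb1. Itga1, Itga4 and Itgb3 had only 1 probe set of that brightness. None of the 36 passed an adjusted p of 0.05 when every probe set was tested in limma.

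**Figure D3:**
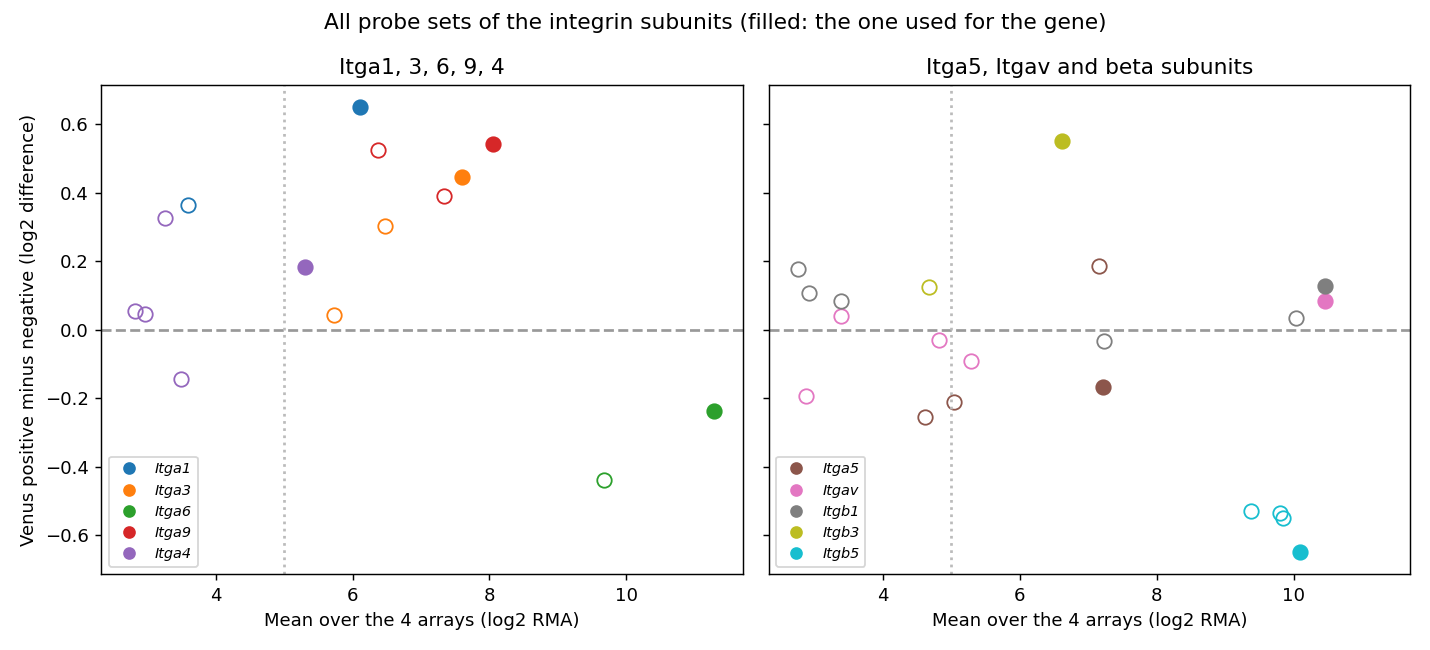
Every probe set of the 10 subunits, by its mean over the 4 arrays (horizontal, log2 RMA) and its log2 difference between Etv2-Venus positive and negative cells (vertical); filled points are the probe sets used for the genes and the dotted line marks a mean of 5. The 4 probe sets of Itgb5 form a group between -0.65 and -0.53, and those of Itga9 lie between 0.39 and 0.54, while those of Itgb1 and Itgav lie on both sides of 0.

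Genes that describe the sort were read on the same arrays. Beside Etv2, given above, Kdr differed by 0.13 with arrays that overlapped and Pdgfra, a marker of paraxial and cardiac mesoderm, by -1.65. Neither passed adjusted p in limma. Further, 11 of 12 endothelial markers had arrays apart in the higher direction, against 22.4% of all genes. The median difference of the 12 was 1.01. The summed signal of those 12 markers was 12.08 and 12.19 log2 units on the negative and 13.14 and 13.16 on the positive arrays, and Emcn, at a mean of 3.38 in both populations, was the exception. The endothelial markers were thus higher in the same population as the higher subunits, though not shown to be so in the same cells. Their part in the subunit values was not tested. Markers of stroma and fibroblasts, measured for 13 of 14 genes, had a median difference of -0.14, with 11 below 0 and 2 above. Cxcl12 (-0.63), Col1a1 (-0.54) and Fbln2 (-0.39) had arrays apart in the lower direction, against 17% of all genes, and the other 10 overlapped. The same 3 were lower at an unadjusted p under 0.05 in limma, against 4.64% of all genes. The summed signal of the 13 was 11.66 and 11.09 on the negative and 11.44 and 10.75 on the positive arrays. This sum was higher on the arrays numbered 1 in both populations, as were the probe sets used for Itgb1 and Itga6, while the second probe set of Itga6 was higher on the arrays numbered 2. Of these markers Lum, Postn, Dcn and Lox had means under 5. The 8 cardiac and smooth muscle markers had a median of -0.41, with 7 below 0 and 1, Tnnt2, above. Actc1, Myl7, Cnn1 and Acta2 had arrays apart in the lower direction, against 17% of all genes. Of the 8, 2 were lower at an unadjusted p under 0.05 in limma, against 4.64% of all genes. The other 4 markers overlapped, among them Tnnt2, which differed by 0.57. The 8 markers summed to 11.28 and 10.92 on the negative and 10.72 and 10.36 on the positive arrays, higher on the arrays numbered 1 in both populations. Single members differed from the sums. Myl7 of this list and Cxcl12 of the stromal list were, like Itgb5, higher on the arrays numbered 2 in both populations. They were the only markers of these lists with that order, and they were named after their values were seen. The part of either list in the integrin values was not tested.

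Beyond these 10 genes, 16 further integrin subunits were listed and 14 were measured, 11 of them with means under 5. None passed adjusted p in limma. At an unadjusted p under 0.05 in limma 2 of the 14 were higher and 1 lower, against 7.07% and 4.64% of all genes. Itga8, which with beta1 binds nephronectin in mesenchyme, gave 9.20 and 9.39 without Venus against 7.74 and 7.56 with Venus. Its difference of -1.65 (SE 0.12; limma adjusted p = 0.0670) was further from 0 than that of any of the 10 subunits. Itga2b, the partner of beta3 on platelets and early blood progenitors, gave 7.82 and 7.90 without Venus against 8.66 and 8.46 with Venus. It was higher by 0.70 (SE 0.11; limma adjusted p = 0.112), beside 0.55 for Itgb3. The platelet list, of which 5 of 7 genes were measured and which holds Itga2b itself, summed to 8.43 and 8.46 on the negative and 8.85 to 9.02 on the positive arrays. Its other members differed little, Pf4 by 0.04, Ppbp by 0.05, Gp9 by -0.01 and Gp1bb by -0.16. Itgb2, the beta chain of leukocyte integrins, was dim at a mean of 4.68 and differed by 0.56 (SE 0.14). Of the 7 leukocyte markers, Itgb2 among them, 5 lay above 0 and 5 had means under 5, with a median of 0.11. Spi1, a transcription factor of blood cells, gave 5.90 and 5.85 without Venus against 6.18 and 6.09 with Venus, and Ptprc, at a mean of 3.20, differed by -0.30. The list had sums of 8.04 to 8.07 on the negative and 8.08 to 8.27 on the positive arrays. The part of these cell types in the Itgb3 and Itgb2 values was not tested. Itga10, Itgb8 and Itgb7, at 0.22, -0.43 and 0.14, followed by p, with adjusted p of 0.637, 0.642 and 0.687 in limma. The negative arrays of Itgb8 were far from each other, at 3.67 and 4.43, and leaving out 1 or the other gave -0.81 or -0.05.

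Of 27 proteins listed as integrin ligands, 25 were measured, with a median difference of 0.05. At an unadjusted p under 0.05 in limma 5 ligands were higher and 2 lower, against 7.07% and 4.64% of all genes. None passed adjusted p in limma. Edil3, an RGD protein of early endothelium that binds alpha v integrins, gave 7.67 and 7.56 without Venus against 8.76 and 8.49 with Venus, differing by 1.01 (SE 0.13; limma adjusted p = 0.0882). The mean over all probe sets of Edil3 gave 0.45. Mfge8, a related RGD protein, was higher by 0.55 (SE 0.11). Emilin1, whose product is a ligand of alpha4 and alpha9, gave 7.84 and 8.02 without Venus against 8.64 and 8.68 with Venus, differing by 0.73 (SE 0.10; limma adjusted p = 0.0985). Col4a1 and Col4a2, the collagen IV chains of basement membrane that alpha1 binds, were higher by 0.59 (SE 0.11) and 0.71 (SE 0.21), the latter 0.46 without array 2 of the negative cells. The lower ligands were Vcam1, which binds alpha4, at -0.33 (SE 0.10; -0.17 with the mean over probe sets) and a mean of 5.05, and Col1a1, a marker of stroma as well, at -0.54 (SE 0.18). Fibronectin itself, Fn1, gave 14.07 and 13.98 without Venus against 13.89 and 13.71 with Venus, near the top of the scale. Its difference was -0.22 (SE 0.11; limma adjusted p = 0.539), and Vtn, which encodes vitronectin, was dim at a mean of 4.02. The values of Fn1 and Col1a1 were chosen for mention after they were seen, as was that of Vtn.

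Of 27 listed integrin activators and adaptors, not all of which link integrin tails to actin, 25 were measured, with a median of 0.05. At an unadjusted p under 0.05 in limma 5 of them were higher and 1 lower, against 7.07% and 4.64% of all genes. None passed adjusted p in limma. Kindlins and talins bind the beta tail and activate the dimer. Fermt3, the kindlin of blood cells and endothelium, gave 8.75 and 8.91 without Venus against 9.76 and 9.68 with Venus, differing by 0.89 (SE 0.10; limma adjusted p = 0.0808). The mean over all probe sets of Fermt3 gave 0.46. Tln2, the second talin, gave 9.22 and 9.32 without Venus against 8.55 and 8.53 with Venus, differing by -0.73 (SE 0.09; limma adjusted p = 0.0882). The mean over its probe sets gave -0.40. Talin 1, encoded by Tln1 and chosen after its value was seen, lay at 0.29 (SE 0.12) with arrays apart. Rap1a and Rap1b, small GTPases upstream of talin, were higher by 0.33 (SE 0.10) and 0.37 (SE 0.09). Ptk2b, a kinase of the focal adhesion kinase family, was higher by 0.49 (SE 0.12), and Parva, an actin-binding partner of integrin-linked kinase, by 0.41 (SE 0.15). Without array 2 of the negative cells the difference of Parva was 0.24.

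**Figure D4:**
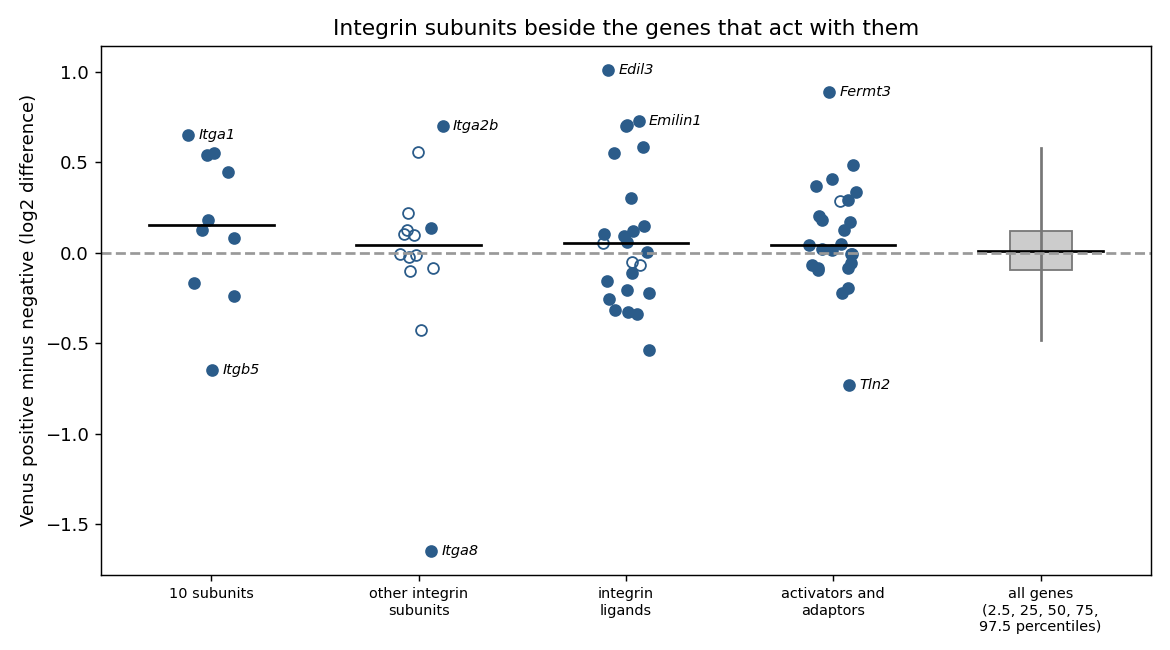
Log2 difference between Etv2-Venus positive and negative cells for the 10 subunits, other integrin subunits, integrin ligands and activators or adaptors; each point is a gene, open points have a mean under 5, and black lines are medians. The box and line at the right give the middle 50% and 95% of all 18193 genes; the medians of the 4 lists lie between 0.05 and 0.16, with Itga8 at -1.65 and Edil3 at 1.01 as the outer points.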

How the data were processed

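Biotin-labelled RNA of 4 sorted samples was read on Affymetrix arrays, per the labels' protocols. The authors deposited log2 signals for each probe set. RMA and R 2.8.0 are named in the submitters' processing notes, and the range of 2.16 to 14.93 gave the log base. Such relative values tend to understate differences of dim and of very bright probe sets. No detection calls were used here.

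Control probe sets were left out. Symbols came from the platform annotation (34945 probe sets with 1 symbol, 34741 matched to RefSeq by Entrez identifier), and no probe set with several symbols held a subunit studied here. The fit (limma 3.58.1, R 4.3.3; lmFit, then eBayes) had a single term for the population and was two-sided, with 2 residual and 2.68 prior degrees of freedom, and Benjamini-Hochberg adjustment over 18193 genes at 0.05. Precision is limited by having 2 arrays per population. The fit was also run on simulated data with arrays drawn independently, so deviations shared by same-numbered arrays were not covered. Members, lists and tests were chosen with earlier results of these data known. Named were the 10 subunits, Etv2, and per list the 6 genes with the smallest p; others are marked or are cell type markers. Of the listed ligands and adaptors Spp1, Fbn1, Fermt1 and Ptk2 were not used here, nor were Itga11 and Itgad, and Cyr61 and Ctgf were read as Ccn1 and Ccn2. Alternatives were every probe set, the mean over probe sets, a mean of at least 6, trend with robust estimation, quantile normalization again, median centring, a block for the array number, and each array left out in turn.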

Additional observations from a re-analysis of the deposited data

How the results depend on the processing

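The calls depended on which genes were tested and on the variance model. Among genes with a mean of at least 6, fewer tests, limma called 79 genes, 66 higher and 13 lower, and 0 of the subunits tested there. Of the 3 related lists it called 1 gene, Itga8 (adjusted p = 0.0429, although its unadjusted p went from 5.87e-05 to 8.46e-05). With trend and robust estimation limma called 112 of the 18193 genes, 81 higher and 31 lower, and again 0 subunits. Of the lists it called 2 genes, Itga8 (adjusted p = 0.0390) and Fermt3 (0.0476). With the array number as a replicate block it called 0. The block combined with trend and robust estimation, added after seeing the data, called 977 of the 18193 genes, 616 higher and 361 lower. It called 12 genes of the 3 lists, which held 14, 25 and 25 measured genes. Of the 10 subunits it called 3, Itgb5 (limma adjusted p = 0.0171), Itga9 (0.0305) and Itgb3 (0.0495). Same-numbered arrays deviated together over genes (r = 0.54), but with only 2 numbers and no shared source in the labels they were not treated as pairs. Over the alternatives the adjusted p ran from 0.0171 to 0.556 for Itgb5, 0.0305 to 0.487 for Itga9 and 0.0495 to 0.480 for Itgb3. The direction turned for Itgav with the mean over probe sets (-0.038), for Itga5 without positive array 1 (range over left-out arrays -0.39 to 0.057) and for Itgb1 without it (-0.076 to 0.33), none called. The cause was not tested. The other 7 subunits kept their direction in every alternative run. Itga4 has no value at a mean of at least 6.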
